A study of Mus musculus with 10 samples.

Results

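Nr4a1, Nr4a2 and Nr4a3 are the 3 genes of the Nr4a family of orphan nuclear receptors, also called Nur77, Nurr1 and Nor1. They were chosen by name as a gene family, with earlier results of these data known. Matched by Ensembl gene ID, all 3 were found among the 47729 genes of the count table. RNA had been sequenced from 3 brain regions (prefrontal cortex, hippocampus, hypothalamus) of outbred CF1 mice at postnatal day 56. The study compared offspring whose parents ate either normal-protein (NP) or low-protein (LP) food during mating, with the dam on that diet through pregnancy and nursing. Hypothalamus came from males alone and the other regions from both sexes, and a single library stood for each region, sex and diet, which gave 10 libraries in 5 NP and LP pairs.

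All mice carried the same strain label (crlfcen:CF1), with no engineered allele named. The NP groups were the male and female prefrontal cortex, the male and female hippocampus and the male hypothalamus of NP offspring, and the LP groups were the same 5 of LP offspring. From weaning at postnatal day 21 until collection at postnatal day 56 all groups, LP included, were kept on the NP diet, so the tissue was collected after the dietary difference had ended. The labels do not say whether a library is 1 animal or a pool, or whether regions share animals. The p-values therefore measure only the spread between these libraries, which may be technical. In edgeR's test each gene's spread is also drawn toward that of all genes tested.

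The Nr4a proteins bind DNA as transcription factors, and no natural ligand is established for them, since bulky side chains fill the pocket where other nuclear receptors hold a hormone. Their activity is therefore set largely by how much protein is made. The genes are immediate early genes: in neurons, calcium and cyclic AMP signals act through CREB with its CRTC coactivators, MEF2 and SRF on the promoters and raise transcription without new protein synthesis. In the adult brain all 3 are induced by neuronal activity, and the family has been studied in hippocampal memory, while Nr4a2 is also made constantly by midbrain dopamine neurons, which require it, and by deep cortical and claustral neurons.

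Nr4a1 (ENSMUSG00000023034) lies on the plus strand of chromosome 15 from 101254269 to 101274795 in GRCm38, Nr4a2 (ENSMUSG00000026826) on the minus strand of chromosome 2 from 57106830 to 57124003, and Nr4a3 (ENSMUSG00000028341) on the plus strand of chromosome 4 from 48045153 to 48086447. All are protein-coding in GENCODE M21, with exons covering 3509, 4059 and 5987 bases, in that order, and no other annotated gene overlaps them on either strand. The sequence before each RefSeq start site (GRCm38.p6) is shown because CREB is known to act on these genes through short cyclic AMP response elements. A part of these elements in the diet differences was not tested. Capitals mark the letters TGACG, or CGTCA where the element lies on the other strand. The windows are chr15:101266596-101266845, plus strand, for Nr4a1; chr2:57124004-57124253, minus strand, for Nr4a2; and chr4:48045055-48045152, plus strand, for Nr4a3. Each reads 5′ to 3′ along the gene's own strand.
Nr4a1: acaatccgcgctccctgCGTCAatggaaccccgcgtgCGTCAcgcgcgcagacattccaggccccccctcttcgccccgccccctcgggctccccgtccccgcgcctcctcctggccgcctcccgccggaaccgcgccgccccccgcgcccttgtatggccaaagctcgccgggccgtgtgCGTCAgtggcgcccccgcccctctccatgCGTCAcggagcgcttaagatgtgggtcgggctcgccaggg
Nr4a2: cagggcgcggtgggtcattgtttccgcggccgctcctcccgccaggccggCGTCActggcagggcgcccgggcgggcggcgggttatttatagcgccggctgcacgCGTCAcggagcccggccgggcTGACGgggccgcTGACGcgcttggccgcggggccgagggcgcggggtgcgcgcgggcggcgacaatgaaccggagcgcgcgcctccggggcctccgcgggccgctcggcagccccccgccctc
Nr4a3: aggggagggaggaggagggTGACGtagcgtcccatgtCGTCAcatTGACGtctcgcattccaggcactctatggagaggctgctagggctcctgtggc
The Nr4a1 window touches no GENCODE exon and lies inside the annotated gene, between exons of its longer transcripts. The Nr4a2 window ends at the base before the annotated gene. The last 152 bases of the 250-base Nr4a3 window fall in a GENCODE exon and are not printed.

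Each of the 3 windows of 250 bases held 4 short elements. Among 32851 RefSeq promoter windows of that length, 17.8% held at least 1 and 0.137% (45 windows) held at least 4, on either strand and with overlaps counted. The Nr4a1, Nr4a2 and Nr4a3 windows were 74.4%, 80.0% and 63.6% G or C, and the share over all windows is not matched for this content. With the base before the start site counted as -1, the elements began at -233, -213, -69 and -40 in Nr4a1, at -200, -144, -123 and -111 in Nr4a2, and at -231, -213, -205 and -147 in Nr4a3, the last of these in the part that is not printed. None of the 3 windows held the full palindromic element TGACGTCA (1.55% of all windows), the Nr4a receptors' own monomer site AAAGGTCA (1.34%) or a CArG box, which SRF binds (1.47%). Nr4a2 alone held the letters of a TATA box (TATAAA on either strand, in 12.4% of all windows), as TTTATA beginning at -164. These are letters in a window, and no binding was measured here.

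**Figure D1:**
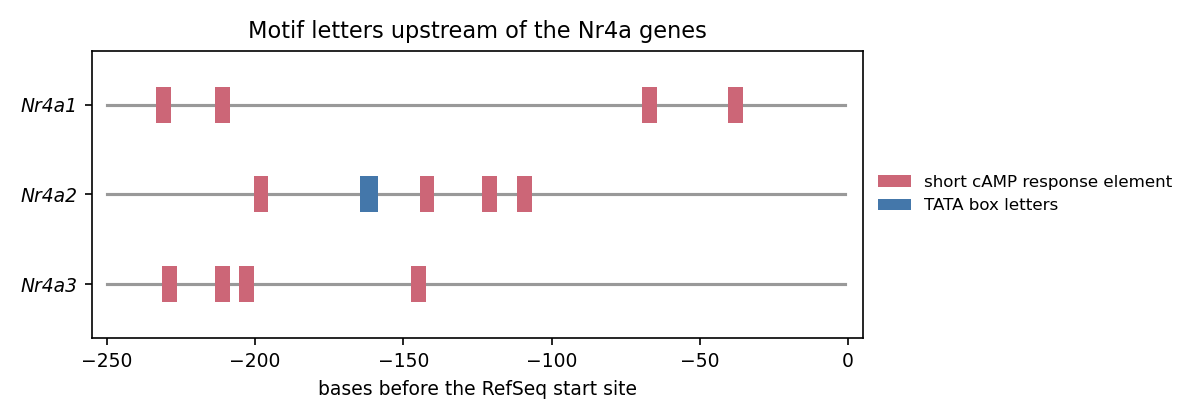
Positions of motif letters in the 250 bases before the RefSeq start site of each Nr4a gene (x axis, bases before the start). Red blocks are the 4 short cyclic AMP response elements found in each window and the blue block is the TATA box letters of Nr4a2. Nr4a1 has 2 elements near the start, at -69 and -40, while the element nearest to it begins at -111 in Nr4a2 and at -147 in Nr4a3.

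Total counts ranged from 7871010 to 16265481 per library. In the hippocampus library of NP females there were no counts for the part of chromosome 4 from Park7 onward nor for chromosomes 5 to 9, X, Y and M. The 19598 genes not placed wholly before that break were treated as not measured there. The 3 Nr4a genes lie before it, with 848, 734 and 1676 counts in that library, and were measured in all 10. Levels are depth-scaled counts (CPM) over the 28131 genes measured in all libraries, scaled by TMM. A count of 0 allows 0.243 to 0.468 CPM, counting error only. The hippocampal and hypothalamic labels matched their markers: the dentate gene Prox1 was at 161 to 186 CPM in hippocampus and 13.4 to 20.9 in prefrontal cortex. The vasopressin gene Avp was at 231 and 438 CPM in hypothalamus and below 1 elsewhere.

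Nr4a transcripts were found in all 3 regions, at 17.2 CPM or more in every library, and their order by region differed between the members. Nr4a1 was highest in prefrontal cortex, at 644 CPM in the male NP, 677 in the male LP, 297 in the female NP and 510 in the female LP library. In hippocampus the 4 libraries stood at 185, 282, 111 and 170 CPM in the same order, and in hypothalamus at 62.9 (NP) and 65.4 (LP). The ranges of the 3 regions did not overlap, and the nearest neighbours were the female NP prefrontal cortex and the male LP hippocampus. Prefrontal cortex averaged 532 ± 172 CPM (SD, n = 4) and hippocampus 187 ± 70.9 (SD, n = 4).

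Nr4a2 had the opposite order between cortex and hippocampus. It was at 44.1, 113, 29.9 and 75.6 CPM in prefrontal cortex (male NP, male LP, female NP, female LP) and at 107, 185, 96.0 and 150 CPM in hippocampus, with 17.2 (NP) and 36.3 (LP) in hypothalamus. Its regions overlapped: the male LP prefrontal cortex lay above both NP hippocampi, and the LP hypothalamus lay above the female NP prefrontal cortex.

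Nr4a3 was at 109, 220, 102 and 198 CPM in prefrontal cortex, at 250, 331, 219 and 305 CPM in hippocampus, and at 20.6 and 53.7 CPM in hypothalamus, in the same order of libraries. The highest cortical library, male LP, and the lowest hippocampal library, female NP, lay within 1 CPM of each other. Both hypothalamic libraries lay below every library of the other regions.

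**Figure D2:**
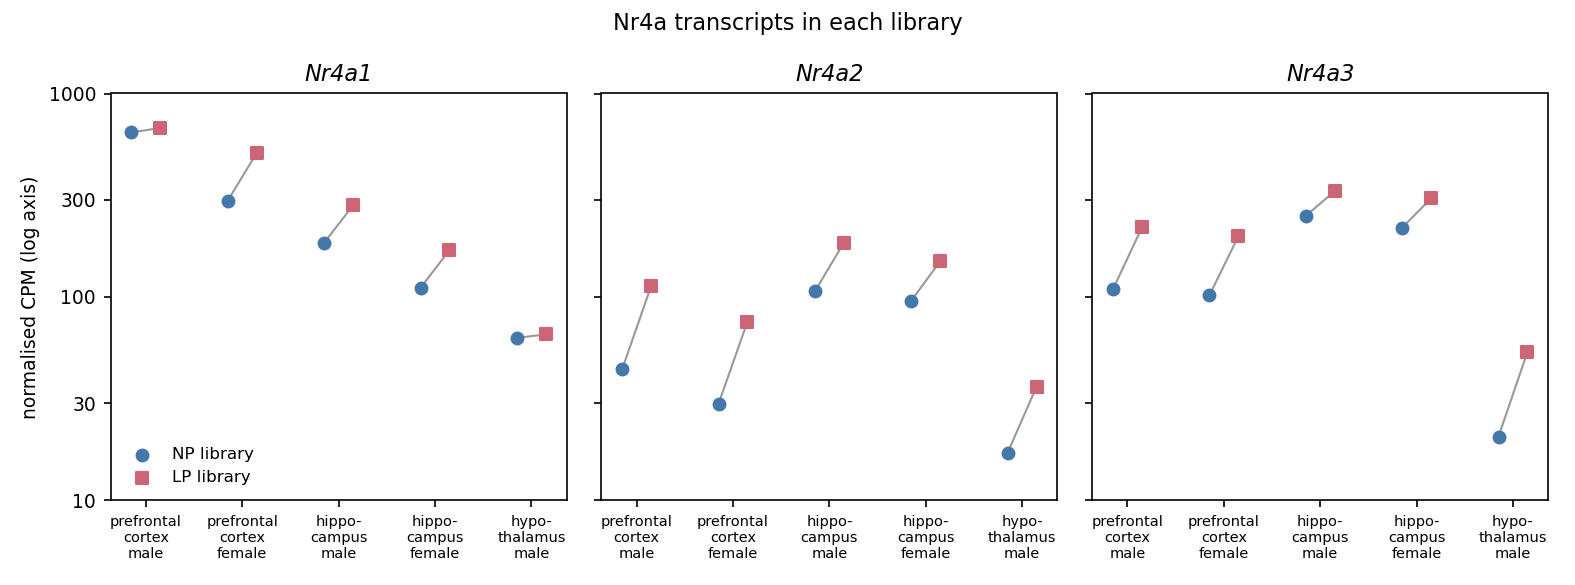
Level of each Nr4a gene in each of the 10 libraries (y axis, TMM-scaled CPM on a log axis; x axis, region and sex). Circles are NP and squares LP libraries, 1 library per point, and a line joins each pair. Nr4a1 falls from 677 CPM at most in prefrontal cortex to 65.4 at most in hypothalamus, while Nr4a2 and Nr4a3 are highest in hippocampus, at 185 and 331 CPM in the male LP library.

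Regions were tested with edgeR's quasi-likelihood test over all 10 libraries, with sex and diet as additive terms. Nr4a1 was lower in hippocampus than in prefrontal cortex by 2.88-fold (log2 difference -1.52 ± 0.098 SE, edgeR adjusted p = 1.48e-08), a direction called for 26.1% of the 17550 genes tested. Nr4a2 was 2.14-fold higher there (log2 1.10 ± 0.11, edgeR adjusted p = 1.23e-06) and Nr4a3 1.83-fold higher (log2 0.87 ± 0.11, edgeR adjusted p = 1.14e-05), a direction called for 27.3% of genes. Against prefrontal cortex, hypothalamus was lower by 10.3-fold for Nr4a1, 2.73-fold for Nr4a2 and 4.52-fold for Nr4a3 (30.5% of genes were called lower). Against hippocampus it was lower by 3.57-fold, 5.83-fold and 8.25-fold (29.9% called lower). The largest of these 6 edgeR adjusted p-values was 2.36e-06. The calls are of a kind shared by a large part of all genes. In bulk tissue, more cells of a type and more RNA per cell cannot be told apart.

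The 3 genes were compared with each other as CPM per kilobase of exon. On this length-scaled level Nr4a1 averaged 152, Nr4a2 16.2 and Nr4a3 26.3 in prefrontal cortex, while hippocampus had 53.2, 33.1 and 46.2, so that the levels lay closer together. Nr4a1 made up 73.7% to 86.3% of the summed family level in the 4 cortical libraries and 34.4% to 44.3% in the 4 hippocampal ones, and the 2 sets did not overlap. In hypothalamus Nr4a1 made up 70.1% in the NP and 51.0% in the LP library. In both female hippocampal libraries Nr4a3, not Nr4a1, was the leading member, with 39.9% (NP) and 37.4% (LP).

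The ratio of 2 members within a library does not depend on depth or scaling, and these ratios were chosen after the levels had been seen. The length-scaled log2 ratio of Nr4a1 to Nr4a2 was 3.34 ± 0.58 (SD, n = 4) in prefrontal cortex and 0.66 ± 0.30 (n = 4) in hippocampus, a difference of -2.68. The ratio of Nr4a1 to Nr4a3 was 2.54 ± 0.54 and 0.15 ± 0.35, a difference of -2.40. For Nr4a2 to Nr4a3 the ratios were -0.80 ± 0.33 and -0.51 ± 0.18. These differences describe the separation already seen in the shares and carry no test. The difference for Nr4a2 to Nr4a3, 0.28, was smaller than the SD within prefrontal cortex.

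**Figure D3:**
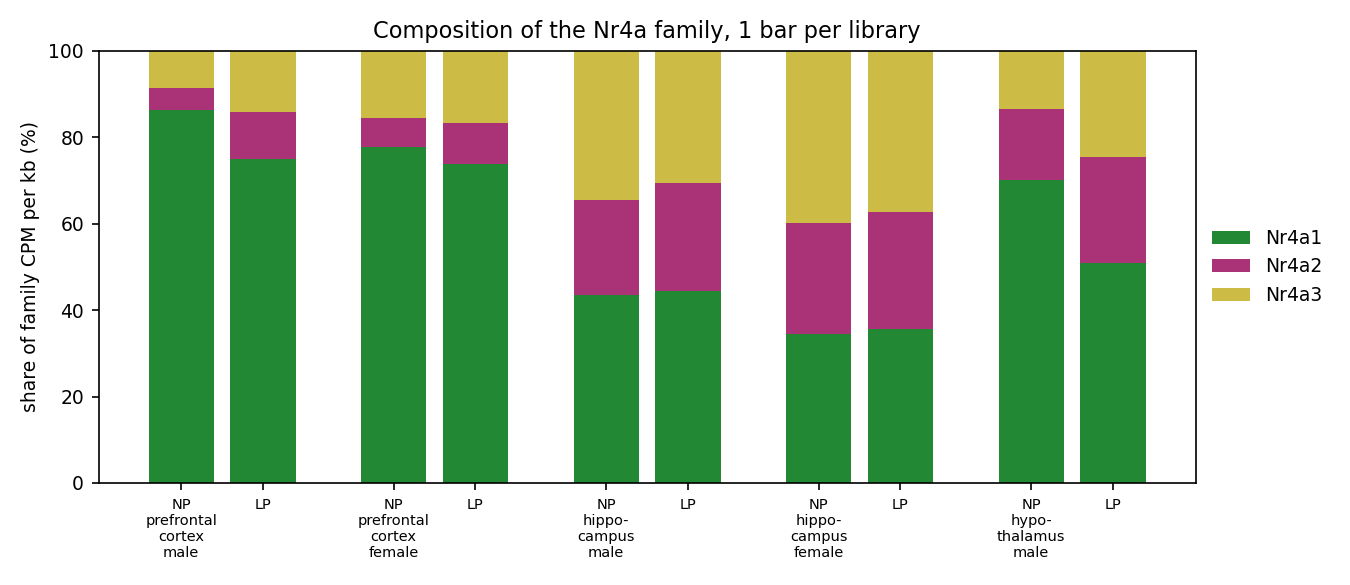
Share of each member in the summed Nr4a level of a library (y axis, percent of CPM per kilobase of exon), with 1 bar per library in NP and LP pairs. Nr4a1 takes at least 73.7% of every cortical bar and at most 44.3% of every hippocampal bar, and the hypothalamic bars stand at 70.1% (NP) and 51.0% (LP).

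Diet was the comparison the study was built on, and all 3 Nr4a genes were higher in the LP than in the NP library of every one of the 5 pairs. Over the 5 pairs Nr4a2 rose 1.99-fold (log2 0.99 ± 0.095 SE, edgeR adjusted p = 0.000191), Nr4a3 1.72-fold (log2 0.78 ± 0.11, edgeR adjusted p = 0.0034) and Nr4a1 1.35-fold (log2 0.43 ± 0.093, edgeR adjusted p = 0.047). Of 17550 genes tested, 0.849% (149 genes) were called higher in LP. Ordered by p, Nr4a2 stood at place 14, Nr4a3 at place 32 and Nr4a1 at place 196. The 3 genes had been chosen with earlier results of these data known. An exact sign-flip permutation of each gene's 5 log2 differences gave p = 0.0625 for each, the smallest that 5 pairs allow. Nr4a1 passed narrowly: it missed the threshold with DESeq2 (log2 0.43, adjusted p = 0.284) and without the female prefrontal cortex pair (0.34, edgeR adjusted p = 0.231), the male hippocampus pair (0.38, 0.191) or the female hippocampus pair (0.39, 0.109). Nr4a2 and Nr4a3 kept the call without each pair in turn, with edgeR adjusted p of at most 0.00171 and 0.0275.

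The single pairs show how the 3 members differed in size of response. Nr4a2 went from 355 to 982 counts in the male prefrontal cortex, a CPM ratio of 2.55 (95% counting interval 2.27 to 2.90), and from 207 to 485 in the female, a ratio of 2.52 (2.15 to 2.99). Its ratio was 1.73 (1.59 to 1.88) in the male and 1.56 (1.42 to 1.71) in the female hippocampus. The cortical intervals lay above both hippocampal ones, and these intervals cover counting error only.

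Nr4a3 had the same order, with ratios of 2.01 (1.86 to 2.18) and 1.95 (1.78 to 2.14) in the male and female prefrontal cortex against 1.32 (1.25 to 1.40) and 1.39 (1.31 to 1.48) in hippocampus. Nr4a1 did not follow it. Its ratio was 1.05 (1.01 to 1.09) in the male prefrontal cortex, where the NP library was already at 644 CPM, and 1.71 (1.62 to 1.81) in the female, where the NP library was at 297. In hippocampus it was 1.53 in both sexes, with counting intervals of 1.43 to 1.63 in males and 1.40 to 1.67 in females.

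In the hypothalamic pair Nr4a3 had a ratio of 2.59 (2.25 to 3.03), from 254 to 599 counts, and Nr4a2 one of 2.10 (1.78 to 2.51), from 212 to 405. Nr4a1 had a ratio of 1.04 with an interval of 0.938 to 1.15, so a difference was not detectable at this depth. This pair has no replicate, and other markers differed within it. Summed markers of midbrain dopamine neurons, which make Nr4a2, stood at 280 CPM in NP and 504 in LP over the 10 of 13 genes measured in all libraries. Of the 13 genes 12 were higher in LP, with a median log2 ratio of 0.62. Counts went from 97 to 779 for the dopamine transporter gene Slc6a3, from 10 to 74 for Chrna6, from 4 to 28 for En1 and from 735 to 834 for Th. The 1 gene lower in LP was Pitx3, a defining factor of those neurons, at 2 and 1 counts, too few to compare. Of the list, Foxa2 was at 0 in NP, and no gene was at 0 in LP. Summed hypothalamic markers went from 1422 to 938 CPM over the 8 of 9 genes measured in all libraries. Of the 9 genes 4 were higher in LP (Pomc, Agrp, Sim1, Hdc) and 5 lower (Avp, Oxt, Hcrt, Pmch, Otp). Their median log2 ratio was -0.10. Markers of layer 6b and claustral neurons, which also make Nr4a2, went from 224 to 296 CPM over 6 of 8 genes. Of the 7 genes found 6 were higher in LP, and Ccn2 alone went from 24.5 to 77.5 CPM. Nxph4 of this list was at 60.9 (NP) and 69.0 (LP) CPM here and at most 2.99 in prefrontal cortex, so it was not particular to cortex. Of 7 neocortical markers 5 were higher in LP (median log2 ratio 0.12) and 2 lower, among them Tbr1, from 61 to 10 counts. Endothelial markers were higher in 7 of 8 genes (median log2 ratio 0.56) and thalamic markers in 7 of 7 (0.38). The part of these genes in the Nr4a2 and Nr4a3 ratios was not tested. Apart from its leading number, the code in the label of this LP library also differs from those of the other 9 in the value of 1 field. The labels do not say what the codes stand for. Without the hypothalamic pair the log2 differences over the other 4 pairs were 0.97 for Nr4a2, 0.69 for Nr4a3 and 0.50 for Nr4a1 (edgeR adjusted p = 0.000374, 0.00175 and 0.0138).

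**Figure D4:**
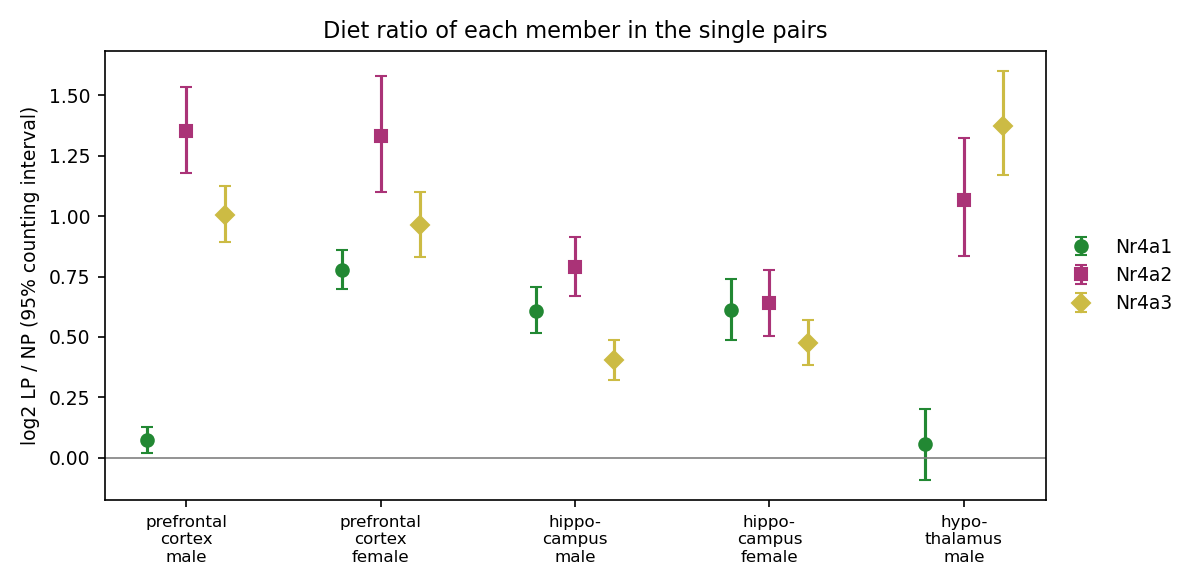
Log2 ratio of LP to NP for each Nr4a gene in each of the 5 pairs of libraries (y axis), with exact 95% intervals for counting error only. All 15 points lie above 0, from 0.055 for Nr4a1 in hypothalamus, whose interval crosses 0, to 1.37 for Nr4a3 in hypothalamus.

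Within prefrontal cortex, over its 2 pairs, Nr4a2 and Nr4a3 had the 2 smallest p-values of all 11433 genes tested. The spread in this test was shared with the hippocampal pairs, with 2 residual degrees of freedom. It was also drawn toward the spread of all genes tested. The p-values therefore do not rest on cortical replicates alone, nor on the spread of the Nr4a genes alone. Nr4a2 rose 2.55-fold (log2 1.35 ± 0.086 SE) and Nr4a3 1.98-fold (0.99 ± 0.064), each with edgeR adjusted p = 1.73e-06, where 0.796% of genes were called higher. NP and LP libraries did not overlap for either gene. Nr4a1 did not pass (log2 0.41 ± 0.11, edgeR adjusted p = 0.0807), and its male NP library lay above the female LP library. Without the male prefrontal cortex pair Nr4a1 stood at 0.78, a value that rests on the female cortical pair alone. The male cortical pair had a log2 difference of 0.072. With the male hippocampus pair dropped Nr4a1 stood at 0.42, and with the female hippocampus pair dropped at 0.41. Each of these fits leaves 1 pair in a region and 1 residual degree of freedom, so no p-value is given. Summed markers of layer 6b and claustral neurons, which make Nr4a2, went from 142 to 151 CPM in the male and from 148 to 129 in the female pair (6 of 8 genes measured in all libraries, none at 0).

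Within hippocampus all 3 passed, where 0.192% of 11433 genes were called higher. The spread was likewise shared with the cortical pairs, with 2 residual degrees of freedom, and drawn toward that of all genes. Nr4a2 rose 1.65-fold (log2 0.72 ± 0.071, edgeR adjusted p = 0.000379), Nr4a3 1.36-fold (0.44 ± 0.059, edgeR adjusted p = 0.00224) and Nr4a1 1.53-fold (0.61 ± 0.12, edgeR adjusted p = 0.0491). NP and LP did not overlap for Nr4a2 and Nr4a3. For Nr4a1 the male NP library lay above the female LP library. Nr4a1 lost the call with DESeq2, and without the hypothalamic pair it was at 0.61 with edgeR adjusted p = 0.0539. Nr4a3 lost it with DESeq2 (adjusted p = 0.122).

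Markers of other cell types also differed in the hippocampal pairs. Summed choroid plexus markers, over the 4 of 7 genes measured in all libraries, went from 168 to 326 CPM in males and from 70.9 to 294 in females. Most of each sum was Ttr, which went from 157 to 313 CPM in males and from 60.3 to 279 in females. Clic6 went from 8.94 to 9.94 and from 7.19 to 9.93. In males 6 of 7 genes were higher in LP and 1 lower, and in females 4 of 4 measured were higher. Summed thalamic markers went from 196 to 237 CPM in males and from 373 to 260 in females (6 of 7 genes). Habenular markers, summed over 3 of 6 genes, went from 8.44 to 12.0 CPM in males and from 17.8 to 7.76 in females. Endothelial markers, summed over 4 of 8 genes, went from 112 to 106 CPM in males and from 106 to 119 in females, and microglial markers, over 6 of 8, from 383 to 367 and from 377 to 376. The part of these cell types in the Nr4a differences was not tested.

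The difference in response between the regions was tested directly. The diet difference in hippocampus was below that in prefrontal cortex by log2 -0.55 ± 0.087 for Nr4a3 and -0.63 ± 0.11 for Nr4a2. These were the 2 smallest unadjusted p-values of 11433 genes, 1.8e-05 and 5.84e-05, and neither passed (edgeR adjusted p = 0.206 and 0.334). No gene passed this test (0%), and DESeq2 also called 0. An unadjusted p under 0.05 was found for 592 genes with edgeR, a share close to that threshold, and for 43 with DESeq2. Nr4a1 stood on the other side at 0.20 ± 0.16 (edgeR adjusted p = 0.981). Without the male hippocampus pair Nr4a2 stood at -0.72, and without the female hippocampus pair Nr4a3 stood at -0.58. Each then rests on 1 hippocampal pair and 1 residual degree of freedom, so no p-value is given. Without the male prefrontal cortex pair Nr4a1 stood at -0.17.

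The same libraries allow the members to be set against each other. From NP to LP the within-library log2 ratio of Nr4a1 to Nr4a2 was lower in 5 of 5 pairs, by a mean of -0.62 ± 0.54 (SD, n = 5; exact sign-flip permutation p = 0.0625, adjusted over 3 ratios 0.188). It moved most in the male prefrontal cortex, from 4.08 to 2.79, and least in the female hippocampus, from 0.42 to 0.39. The ratio of Nr4a1 to Nr4a3 was lower in 3 pairs and higher in 2 (mean -0.42 ± 0.68, exact sign-flip permutation p = 0.375). The ratio of Nr4a2 to Nr4a3 was higher in 4 pairs and lower in 1 (mean 0.19 ± 0.29, exact sign-flip permutation p = 0.188). With 5 pairs none of these can go below 0.0625.

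The female libraries had less Nr4a1 than the male ones, with 1 library for each region, sex and diet. Within each combination of region and diet the female library was the lower: 297 against 644 CPM in NP and 510 against 677 in LP prefrontal cortex, and 111 against 185 in NP and 170 against 282 in LP hippocampus. Over these 4 comparisons Nr4a1 was lower in females by 1.68-fold (log2 -0.74 ± 0.083 SE, edgeR adjusted p = 0.00091), at place 13 by p of 17550 genes, of which 0.194% (34 genes) were called lower. Nr4a2 was also lower in all 4 comparisons, by 1.29-fold (log2 -0.37 ± 0.070, edgeR adjusted p = 0.0417). Its call was lost with DESeq2 (adjusted p = 0.112) and without the male or the female prefrontal cortex pair (log2 -0.23 and -0.24, edgeR adjusted p = 0.523 and 0.535). Nr4a3 did not pass (log2 -0.14 ± 0.042, edgeR adjusted p = 0.286). Other activity-induced transcription factor genes had 6 of 18 members lower in females and 0 higher, with a median log2 difference of -0.40. Of 14 activity-induced genes for other proteins 4 were lower and 1 higher, with a median of -0.14.

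Whether the diet difference depended on sex was tested in the 8 cortical and hippocampal libraries, where 0.209% of 10543 genes (22 genes) passed. None of the 3 members passed. Nr4a1 had a larger difference in females by log2 0.39 ± 0.13 (unadjusted p = 0.0106, edgeR adjusted p = 0.532), Nr4a2 stood at -0.14 ± 0.19 (adjusted 0.914) and Nr4a3 at 0.010 ± 0.17 (adjusted 0.992). The Nr4a1 pair differences were 0.072 in males and 0.78 in females in prefrontal cortex, and 0.61 in both hippocampal pairs. Without the male hippocampus pair the sex difference for Nr4a1 was 0.63, with males resting on the prefrontal cortex pair alone.

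The genes whose profiles over the 10 libraries were most like those of the Nr4a genes fell along the same line between Nr4a1 and the other 2. Likeness was the root mean square difference of log2 CPM after each profile was centred on its own mean, over 7733 genes with a mean of at least 10 CPM. Nearest to Nr4a1 was Egr1, a zinc finger immediate early gene, at 0.24, with means of 1437 CPM in prefrontal cortex, 417 in hippocampus and 165 in hypothalamus. Next came Arl4d, a small GTPase gene, at 0.28, and Npas4, a neuron-specific immediate early transcription factor gene, at 0.35. Nearest to Nr4a2 was Slit3, a gene of the Slit guidance proteins, at 0.48, then Arhgef28 at 0.49 and Matn2, a matrix protein gene, at 0.50. Nearest to Nr4a3 were Smoc2, a secreted calcium-binding protein gene, at 0.33, Sowaha at 0.41 and Slit3 at 0.43.

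Between the members, Nr4a2 and Nr4a3 lay 0.41 apart. No other searched gene was nearer to Nr4a2 than Nr4a3 was, and 1 gene was nearer to Nr4a3 than Nr4a2 was. Nr4a1 lay 1.28 from Nr4a2 and 1.17 from Nr4a3, and 5043 and 3367 of the 7733 genes were nearer to Nr4a1 than these were. The profiles share libraries and are led by the region differences: of the genes nearest to Nr4a2 and Nr4a3 none passed the diet test over 5 pairs, and of those nearest to Nr4a1 only Egr1 did (log2 0.47, edgeR adjusted p = 0.0159).

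The diet values of other nuclear receptor genes are set beside those of the Nr4a genes. Of 46 such genes 36 were tested over the 5 pairs, 0 passed in either direction, 20 were above 0 and 16 below, and their median log2 difference was 0.027, beside -0.00034 for all 17550 genes tested. Of the 36, 4 had an unadjusted edgeR p under 0.05, beside 2411 of all 17550 genes, and DESeq2 called 0 of the 36. Over all genes 1.21% were called in either direction, so a count of 0 in 36 lies near that share, and a difference from the Nr4a genes was not tested. The smallest p was that of Nr5a2, a phospholipid-binding orphan receptor gene (log2 0.85 ± 0.24 SE, edgeR adjusted p = 0.11). Its counts were 64 (NP) and 103 (LP) in the hypothalamic pair and at most 3 in any other library, so its value rests largely on that pair. The median was -0.012 within prefrontal cortex and -0.012 within hippocampus, over 26 tested genes with 0 calls in each, where 1.33% and 0.271% of all genes were called in either direction.

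**Figure D5:**
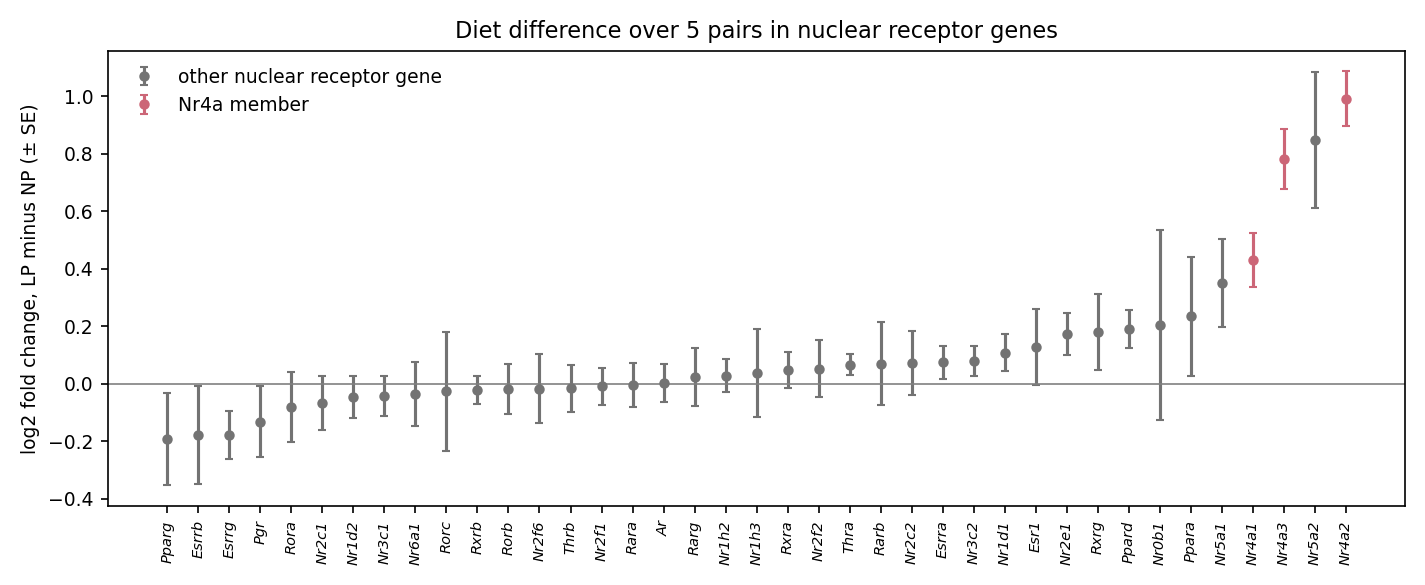
Diet difference over 5 pairs (y axis, log2 fold change of LP over NP, bars ± SE) for the 39 nuclear receptor genes tested, in order of size along the x axis. The Nr4a genes (red) stand at 0.43, 0.78 and 0.99, while the other 36 (grey) have a median of 0.027. Nr5a2 at 0.85 did not pass the test, and outside the hypothalamic pair it had at most 3 counts in a library.

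Genes of the signalling that acts on the Nr4a promoters gave 1 call. Of 21 genes for CREB, its coactivators, MEF2 and SRF factors and their kinases, all tested over the 5 pairs, 1 passed (1.21% of all genes were called in either direction and 0.849% higher), Srf, which rose 1.16-fold (log2 0.22 ± 0.046 SE, edgeR adjusted p = 0.0426). Creb1, the founding CREB gene, stood at 0.054 ± 0.086 (edgeR adjusted p = 0.841). The list's median was 0.034. Srf lost its call with DESeq2 and without 3 of the pairs. Within prefrontal cortex 1 of 14 tested genes passed, Mef2c, named here after its value was seen, which fell by 0.31 on the log2 scale (edgeR adjusted p = 0.0212), where 0.534% of all genes were called lower. Within hippocampus 0 of 14 passed, with 0.271% of all genes called. Single calls in lists of this size say nothing about the lists.

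Among 14 genes for dimer partners and coregulators of the Nr4a proteins, 1 passed over the 5 pairs, against 1.21% of all genes in either direction. It was the RNA-binding corepressor gene Sfpq (log2 0.22 ± 0.041, edgeR adjusted p = 0.0227). Rxra, Rxrb and Rxrg, the retinoid X receptor genes whose products pair with Nr4a1 and Nr4a2, stood at 0.047, -0.021 and 0.18 and did not pass (edgeR adjusted p of 0.602 or more). Sfpq lost its call without the female prefrontal cortex, male hippocampus or female hippocampus pair.

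Genes that neuronal activity is known to induce alongside the Nr4a family were also higher in LP. Of 18 other activity-induced transcription factor genes 10 rose over the 5 pairs (0.849% of all genes did), 0 fell and 8 did not pass, with a median log2 difference of 0.58. The 4 with the smallest p were Fosl2 (log2 0.88 ± 0.072), Fosb (0.96 ± 0.13), Jun (0.44 ± 0.062) and Fos (0.69 ± 0.11), which encode AP-1 subunits. Fosl2 and Fosb were not measured in the female NP hippocampus and come from 9 libraries. Nr4a2, at 0.99, lay above all 18 of these genes, Nr4a3 at 0.78 above all but 4, and Nr4a1 at 0.43 below the median. The count of 10 became 6 with DESeq2, 6 without the male hippocampus pair and 3 without the female prefrontal cortex pair.

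Of 14 activity-induced genes for other proteins 6 rose, 0 fell and 8 did not pass, with a median of 0.40. Homer1, a synaptic scaffold gene with an activity-induced short form, stood at 0.62 ± 0.051, and Per1, a clock gene with cyclic AMP response elements in its promoter, at 0.40 ± 0.047. Gadd45b, whose product takes part in DNA demethylation, stood at 0.73 ± 0.12, and Sik1, a salt-inducible kinase gene that limits CREB coactivators, at 0.53 ± 0.092. The count became 2 without the female prefrontal cortex pair. Both activity lists and their direction were known from earlier results of these data.

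In single pairs the activity-induced transcription factor genes differed most in the female prefrontal cortex, with a median log2 ratio of 0.93 and 17 of 18 genes higher in LP. The male prefrontal cortex had a median of 0.33 (15 of 18), the male hippocampus 0.63 (18 of 18), the female hippocampus 0.39 (10 of 12 measured) and the hypothalamus 0.21 (15 of 18). Nr4a2 and Nr4a3 exceeded these medians in every pair except Nr4a3 in the male hippocampus, where it was 0.40. Nr4a1 lay above the median in the female hippocampus alone. Over all 11433 genes the medians of the 5 pairs lay between -0.0075 and 0.0046.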

How the data were processed

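Libraries were prepared with Illumina TruSeq kits, per the labels' protocols. The submitters' processing notes name CASAVA, FastQC 0.10.1, STAR 2.5.0a and the mm10 build. The authors deposited 1 table of raw counts per Ensembl gene, with 1 column per library and no normalization. Which tool and annotation release were used for counting, and whether by strand, is not given in the sources used here. Gene names, exon lengths and coordinates came from GENCODE M21 (GRCm38), to which 47310 of 47729 gene IDs were matched. Promoter sequences came from RefSeq (GRCm38.p6), and all 3 Nr4a genes were matched by symbol.

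Counts were analysed in R 4.3.3 with edgeR 4.0.16: filterByExpr by region (minimum count 10), TMM scaling and the quasi-likelihood F test, adjusted by Benjamini-Hochberg over all genes tested at a threshold of 0.05. The pipeline was tested on simulated data. Diet was tested within strata of region and sex over 5 pairs, and from 1 diet coefficient per region. Genes not measured in the female NP hippocampus library were fitted in the other 9 libraries if that left 2 or more residual degrees of freedom. Log2 CPM values use a prior count of 2. Single pairs have no replicate, so they carry exact 95% conditional binomial intervals and no p-value.

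The 3 genes and all gene lists were chosen with earlier results of these data known. For each member the 3 genes with the most similar profile were named. From each list at most 4 called genes with the smallest p over 5 pairs were named, or the one with the smallest p where none was called. Alternatives were DESeq2 1.42.0, other scalings, no filter, the earlier edgeR method, the zeros of the incomplete library kept, and each pair left out. Figures were drawn with matplotlib 3.10.9.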

Additional observations from a re-analysis of the deposited data

How the results depend on the processing

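Each of the 27 results of the 3 genes (9 comparisons) was recomputed under up to 12 alternatives, and all region calls kept their direction and their side of the threshold. With the zeros of the incomplete library kept as counts, so that 19598 genes enter with missing values as 0, no diet or sex call of a member passed. The log2 values then were 0.43 (Nr4a1), 1.04 (Nr4a2) and 0.85 (Nr4a3) over 5 pairs, 1.35 (Nr4a2) and 0.99 (Nr4a3) in prefrontal cortex, 0.62, 0.72 and 0.45 (Nr4a1, Nr4a2, Nr4a3) in hippocampus, and -0.75 (Nr4a1) and -0.41 (Nr4a2) for sex. Nr4a1 over 5 pairs also missed the threshold with DESeq2 (0.43), without TMM (0.42), without a low-count filter (0.43) and with the earlier quasi-likelihood method (0.43), with edgeR adjusted p of 0.0551, 0.0574 and 0.0507 in the last 3. In hippocampus Nr4a1 did so with DESeq2 (0.61), no filter (0.62) and the earlier method (0.61), and Nr4a3 with DESeq2 (0.44) and no filter (0.44). For sex, Nr4a2 did so with DESeq2 (-0.38) and no filter (-0.36). The regional difference of the diet response of Nr4a3 passed with the earlier method (-0.55, adjusted p = 0.0396). The sex difference of the diet response of Nr4a3 changed sign without TMM (-0.00069) and without a filter (-0.0013). The cause of each was not tested.

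With 1 pair left out in turn, the values over the remaining pairs ran from 0.34 to 0.55 for Nr4a1 by diet, 0.073 to 0.78 for Nr4a1 in prefrontal cortex and 0.609 to 0.612 for Nr4a1 in hippocampus. For the regional difference of the diet response they ran from -0.17 to 0.54 (Nr4a1), -0.72 to -0.55 (Nr4a2) and -0.58 to -0.52 (Nr4a3). For its sex difference they ran from 0.096 to 0.63 (Nr4a1), -0.49 to 0.30 (Nr4a2) and -0.33 to 0.27 (Nr4a3). For sex Nr4a2 ran from -0.58 to -0.23. The genes named as nearest in profile were the same 3 for each member without TMM. The 3 genes had 207 counts or more in every library, and there was 1 library for each region, sex and diet.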
